A study of Mus musculus with 12 samples.

Results

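The Notch receptors, 2 of their ligands, the receptor-modifying fringe enzyme Lfng and 3 genes of the HES and HEY families were followed in mouse mammospheres before and after differentiation. The set holds 10 genes, taken by symbol (Notch1, Notch2, Notch3, Notch4, Jag1, Dll4, Lfng, Hes1, Hey1 and Heyl), of 18194 genes that have a probe set of their own on the arrays used. These 10 genes have 21 such probe sets, 19 on the Affymetrix chip MOE430A and 2 on its companion MOE430B, and every one of them is described. Notch1 fell in the differentiated samples with both of its probe sets, 2.976-fold and 2.557-fold. Some differentiated signals of each were below background, so these sizes are uncertain. Notch2 fell 1.527-fold on its brighter probe set only, and Heyl fell on its dimmer probe sets only. The brightest probe sets of Notch3, Jag1, Hes1 and Heyl were above the array background in every sample and did not pass the test.

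Notch is a transmembrane receptor that is cut when a ligand on a neighbouring cell binds it. The freed intracellular domain enters the nucleus, joins the DNA-binding protein RBPJ and a Mastermind coactivator, and turns on targets such as the HES and HEY repressors. In the mammary gland, Notch signalling is known for its part in the choice between luminal and basal cell fates and in the behaviour of progenitor cells.

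Mammospheres are cultures of mammary cells that grow as balls in suspension. The undifferentiated state was represented by 3 samples of mouse mammospheres at passage 3, kept in a mixture of DMEM and F12 with heparin, B-27 and the growth factors EGF and basic FGF, for which the submitters estimated a purity of 90% with 10% myoepithelial cells. The differentiated state was represented by 3 samples of mammosphere cells on collagen-coated dishes, induced for 6 days with DMEM rich in glucose and 5% fetal bovine serum, and estimated at 50% myoepithelial and 50% luminal. Medium, serum, substrate and time therefore changed together between the states. Strain, genotype and age are not given in the sources used here. The samples are numbered 1, 2 and 4 in each state, and each was hybridised to both chips, which gave 12 arrays. Nothing in the labels shows that the 3 samples per state are separate animals or cultures, so the p-values measure the spread between these samples only, which may be technical.

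Signals are MAS5 intensities on a linear scale, and the number of arrays limits their precision. The background of an array was taken as the highest signal of its TrpnX control probe sets. It was 515.5 to 829.8 on MOE430A and 1674 to 2995 on MOE430B. On MOE430A it was 567, 656.5 and 515.5 in undifferentiated samples 1, 2 and 4, and 829.8, 691.2 and 670.4 in the differentiated. A probe set there can therefore be above background in fewer differentiated samples without a lower signal. Below background lay 43.39% to 54.4% of probe sets on MOE430A arrays and 69.18% to 84.81% on MOE430B arrays. Spiked hybridisation controls stood apart in the differentiated state: relative to the mean of the undifferentiated arrays they were at 2.811, 1.358 and 2.797 on MOE430A in differentiated samples 1, 2 and 4, against 0.8749 to 1.086 in the undifferentiated samples. The undifferentiated arrays were all run on fluidics station 2 and the differentiated arrays all on station 1, so station and state cannot be told apart. In bulk RNA, fewer cells of a type and less RNA per cell cannot be told apart either.

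The labelled cell types were checked against marker genes on MOE430A. Of 12 luminal markers 7 (Krt19, Epcam, Cdh1, Elf5, Gata3, Esr1 and Pgr) were never above background there, and of 12 myoepithelial and basal markers 6 were not, among them the keratins Krt5, Krt14 and Krt17 and the basal regulator Trp63. On MOE430B a probe set of Epcam was above background in 2 of 3 undifferentiated and 3 of 3 differentiated samples and one of Pgr in 1 of 3 and 2 of 3, and on MOE430A the luminal keratin Krt8 was above background in all samples of both states. Csn3 was the only luminal marker called, lower, at -1.81 with an adjusted p of 0.0156 from limma. The brightest probe sets of Krt18, Cldn3 and Cldn4 were above background in 2, 3 and 2 undifferentiated samples. In the differentiated state, with its higher backgrounds on MOE430A, they were so in 0, 1 and 0 samples, and none was called. Of the myoepithelial and basal list the contractile genes Acta2, Cnn1, Tagln and Mylk and the cadherin Cdh3 rose, the contractile gene Myh11 was never above background, and the integrin Itga6 fell from a mean of 1963 to one below background. The summed signal of that list went from 10150 to 10490 in the undifferentiated samples to 65100 to 85280 in the differentiated. Most of this rise came from Acta2, with means of 5580 and 50040, and Tagln, with means of 400.2 and 17970. All 8 fibroblast markers were above background in both states, with a summed signal of 316600 to 327300 and then 517000 to 724000. Of these 5 rose, among them 3 collagen genes, Lum and Fap fell, with log2 fold changes of -1.52 and -1.39, and Dcn did not pass, at -0.03. The samples are therefore described here by their labelled states and not as luminal or myoepithelial cells.

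Promoter sequence is shown first, for the 2 receptors that fell, for Notch3, which is above background and did not pass the test, and for Lfng. RefSeq (mouse build GRCm38.p6) held a promoter entry for 7 of the 10 genes, namely Notch1, Notch2, Notch3, Notch4, Jag1, Dll4 and Lfng. The 250 bases before each transcription start were searched on both strands for the RBPJ core motif TGGGAA, which 21.6% of 32851 RefSeq windows of this length hold, and for the GC-box GGGCGG, which 32.7% hold. The Notch1 window is chr2:26503823-26504072 (minus strand), the Notch2 window chr3:98013288-98013537 (plus strand), the Notch3 window chr17:32166891-32167140 (minus strand) and the Lfng window chr5:140607091-140607340 (plus strand). All lie immediately upstream of the annotated start. Capitals mark the GC-box on either strand in the 3 receptor promoters and the RBPJ motif on either strand in Lfng.
Notch1: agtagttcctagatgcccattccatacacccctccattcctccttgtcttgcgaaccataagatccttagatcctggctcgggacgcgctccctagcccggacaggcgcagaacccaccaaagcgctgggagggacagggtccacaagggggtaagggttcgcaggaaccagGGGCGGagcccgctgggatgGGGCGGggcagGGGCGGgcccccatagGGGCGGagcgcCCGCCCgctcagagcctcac
Notch2: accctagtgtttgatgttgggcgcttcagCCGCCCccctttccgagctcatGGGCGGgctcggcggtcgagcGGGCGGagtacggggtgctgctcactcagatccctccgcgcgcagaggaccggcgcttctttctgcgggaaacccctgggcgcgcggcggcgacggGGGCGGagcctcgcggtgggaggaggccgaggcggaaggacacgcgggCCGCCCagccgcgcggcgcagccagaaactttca
Notch3: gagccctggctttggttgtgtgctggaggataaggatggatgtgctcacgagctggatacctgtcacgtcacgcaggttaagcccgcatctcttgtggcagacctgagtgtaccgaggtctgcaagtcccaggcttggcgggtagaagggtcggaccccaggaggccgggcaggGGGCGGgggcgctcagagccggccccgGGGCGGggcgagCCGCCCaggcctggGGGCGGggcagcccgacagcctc
Lfng: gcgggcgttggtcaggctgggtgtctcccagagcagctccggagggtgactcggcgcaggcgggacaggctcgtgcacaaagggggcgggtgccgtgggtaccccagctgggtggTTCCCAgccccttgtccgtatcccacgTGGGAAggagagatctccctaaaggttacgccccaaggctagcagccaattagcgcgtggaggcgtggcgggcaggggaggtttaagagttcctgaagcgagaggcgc

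The GC-box was found 5 times in Notch1, 5 times in Notch2 and 4 times in Notch3, which did not pass the test. Notch4, the other receptor that did not pass, held it 0 times, as did Jag1, while Dll4 held it 2 times and Lfng 1 time. The RBPJ motif was found 2 times in Lfng and 0 times in the other 6 windows, which says only that these letters are not in those 250 bases. The windows of the 4 receptors and of Jag1 and Dll4 also lacked the E-box CACGTG, which 6.02% of windows hold and which occurs 1 time in Lfng. These matches are descriptions of sequence and not of binding.

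The question put to the 10 genes was whether their signal differed between the undifferentiated and the differentiated samples. Probe sets with a mean signal of at least 20% of the common array mean were tested with limma on log2 signals, with p-values adjusted by Benjamini and Hochberg over all tested probe sets of a chip and a threshold of 0.05. This filter passed 17 of the 21 probe sets, 15 on MOE430A and 2 on MOE430B. Each log2 fold change is differentiated over undifferentiated, on the scale of log2 of the signal plus a small offset, which understates the change of dim probe sets. Among the 9 genes tested on MOE430A, each taken by its brightest tested probe set, 2 were lower (Notch1 and Notch2) and 1 was higher (Dll4, with all 6 signals below background). Over all 9484 genes of that chip, 13.9% were lower and 14.2% higher by the same rule, so the counts for this small set are not far from the chip as a whole. By probe set, 5 of 15 were lower and 2 higher, where the chip had 14.4% lower and 14.1% higher. These 5 belong to 3 genes, so they are not independent.

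**Figure D1:**
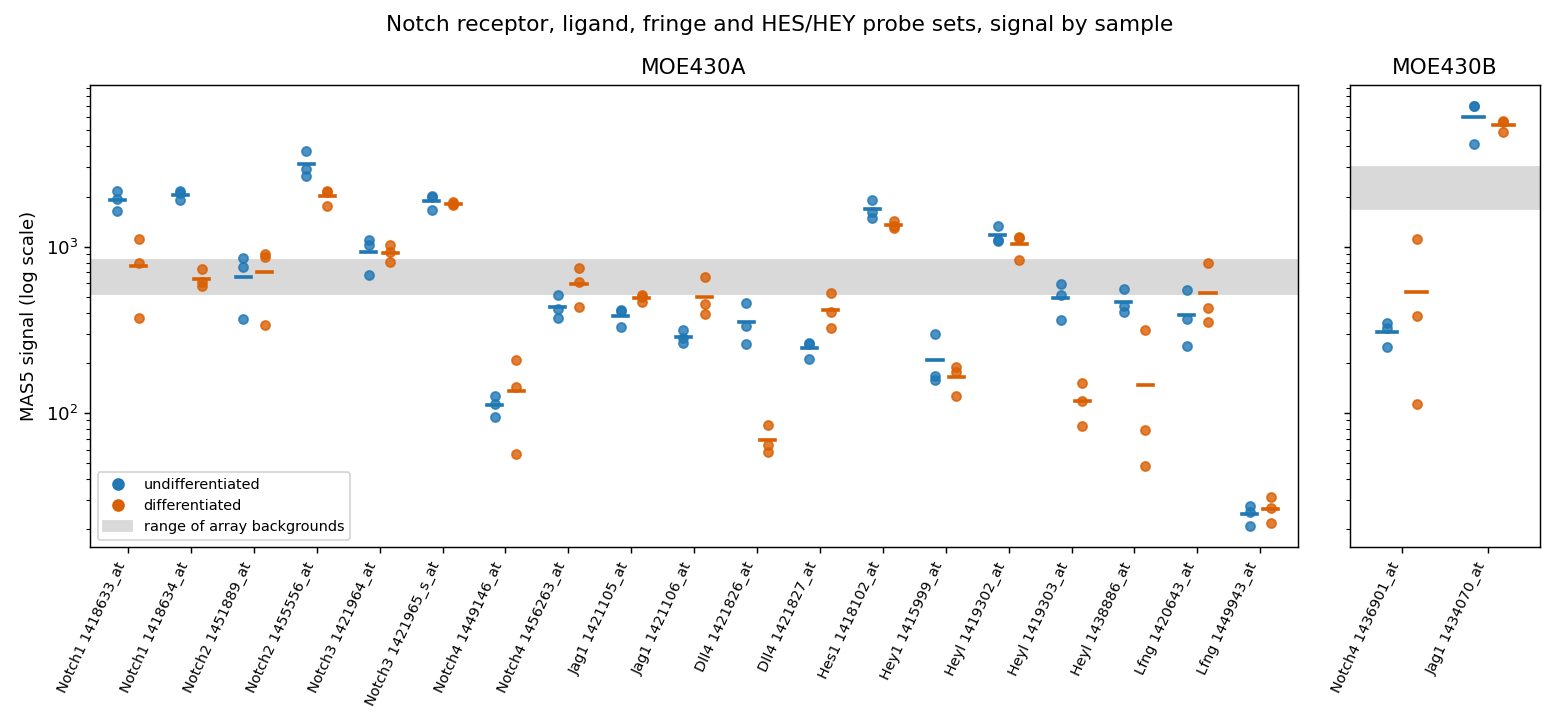
MAS5 signal (log axis) of every probe set of the 10 genes, with 1 point per sample, a short bar at the mean of 3 samples and a grey band for the range of the array backgrounds of each chip. Both Notch1 probe sets lie above the band in all undifferentiated samples and lie in or below it in the differentiated ones apart from a signal of 1105, while those of Notch4, Dll4 and Hey1 lie in or below it in both states.

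Notch1, the best-studied receptor of the family, fell. With probe set 1418634_at its signals were 2154, 1908 and 2091 in undifferentiated samples 1, 2 and 4, and 577.9, 729.6 and 616.4 in differentiated samples 1, 2 and 4. All 3 undifferentiated values were high and close together, all 3 differentiated values were low, and the states did not overlap. The means were 2051 ± 127.8 (SD, n = 3) and 641.3 ± 78.84 (SD, n = 3). The log2 fold change was -1.57 ± 0.13 (SE), with a 95% interval of -1.89 to -1.26 and an adjusted p of 0.000297 from limma. This is 2.976-fold lower, with an interval of 2.392 to 3.704, but only 1 of 3 differentiated signals was above the background of its array, so the size is uncertain.

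The other Notch1 probe set, 1418633_at, pointed the same way with more scatter. Its signals were 2167, 1932 and 1647 in the undifferentiated samples and 1105, 373.2 and 800.7 in the differentiated. Again the states did not overlap, with differentiated sample 2 lowest and below its background and differentiated sample 1 highest of its state. The change was -1.35 ± 0.34 (SE) with an adjusted p of 0.0251 from limma. Leaving out any 1 undifferentiated sample ended this call, with an adjusted p of 0.0776 without sample 1, 0.0733 without sample 2 and 0.0597 without sample 4, while the call for 1418634_at remained under every alternative run, at an adjusted p of at most 0.00813.

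Notch2, a receptor of the same structure, was measured by probe sets that differed from each other. The brighter, 1455556_at, gave 2947, 3779 and 2666 in the undifferentiated samples and 1750, 2156 and 2126 in the differentiated, all of them above background. Every differentiated value lay below every undifferentiated one. The means were 3131 ± 578.9 and 2011 ± 226.4 (SD, n = 3 each), and the log2 fold change was -0.61 ± 0.17 (SE), or 1.527-fold lower, with an adjusted p of 0.0354 from limma. This call was lost on leaving out any sample except undifferentiated sample 4, at adjusted p-values from 0.0577 to 0.1. The dimmer probe set, 1451889_at, had 851.5, 751.1 and 364.3 against 903.4, 338.8 and 862.7. Its states overlapped, 1 sample of each state was low, and the log2 fold change of 0.06 ± 0.41 (SE) had an adjusted p of 0.927.

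Notch3, the receptor best known from vascular smooth muscle and pericytes, did not pass with either probe set. Its brighter probe set, 1421965_s_at, whose suffix marks probes that can match several transcripts, gave 2014, 1999 and 1661 in the undifferentiated and 1815, 1788 and 1844 in the differentiated samples. All 6 signals were above background and the states overlapped. The log2 fold change was -0.05 ± 0.13 (SE) with a 95% interval of -0.35 to 0.25, which leaves out a fall as large as that of Notch1. The second probe set, 1421964_at, ranged from 670.9 to 1102 over both states, with a log2 fold change of 0.00 ± 0.20 (SE).

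Notch4, a receptor known from endothelial cells, was below background on every array with all 3 of its probe sets. The brightest on MOE430A, 1456263_at, had 371.6, 513.3 and 423.2 in the undifferentiated and 743.6, 611 and 433.8 in the differentiated samples, which overlapped, and an adjusted p of 0.209. On MOE430B the probe set 1436901_at ranged from 112.5 to 1114 with an adjusted p of 0.867, and 1449146_at was too dim to be tested, at 56.65 to 206.5. No fold is read from signals below background in both states, and where a fitted change of such a probe set is plotted or listed it has no measured size.

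The change of Notch1 was also set against those of Notch2, Notch3, Hes1 and Heyl, the genes of MOE430A above background in both states, each by its brightest probe set. These 4 comparisons were chosen after the values had been seen. The change of Notch1 minus that of the other gene was -0.96 (log2) for Notch2, -1.52 for Notch3, -1.28 for Hes1 and -1.4 for Heyl. The exact two-sided permutation p was 0.1 each time (n = 3 per state), also after adjustment over the 4, and 0.1 is the smallest value that 3 against 3 samples can give, so unequal change could not be shown by this test. Signals of Notch1 below background in the differentiated samples make the sizes of these differences uncertain.

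Jag1 and Dll4 encode ligands that are displayed on the signal-sending cell. Jag1 was well above background with probe set 1434070_at of MOE430B, at 4166, 7014 and 6995 in the undifferentiated and 4874, 5615 and 5675 in the differentiated samples. Undifferentiated sample 1 was the lowest of all, and the states overlapped. The log2 fold change was -0.13 ± 0.29 (SE), with a 95% interval of -0.82 to 0.56 and an adjusted p of 0.876. On that chip 0 of the 2 genes of the set tested there (Jag1 and Notch4) passed, beside 0.9% of 8222 genes that were higher and 1.5% that were lower. By probe set, only 1.12% of those tested there were lower and 0.714% higher, and a change of moderate size was not detectable at this spread. Both Jag1 probe sets of MOE430A were below background in all samples, at 264.1 to 415.1 in the undifferentiated and 395.2 to 654.4 in the differentiated. Of these, 1421106_at passed as higher with an adjusted p of 0.0401, from 282.8, 264.1 and 315.9 to 449.6, 395.2 and 654.4, and 1421105_at did not, with an adjusted p of 0.12.

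Dll4, a ligand known for its role in the sprouting of blood vessels, was not above background on any array, and its probe sets opposed each other. With 1421827_at the signals were 209.9, 260.6 and 263.3 in the undifferentiated and 324.2, 404.1 and 526.4 in the differentiated samples, higher in all 3 and called with an adjusted p of 0.0422. With 1421826_at, too dim on average to be tested, they were 258.4, 332.6 and 459.2 and then 63.65, 84.25 and 58.51, lower in all 3. Since both states lie below background and the probe sets go opposite ways, no direction is given for Dll4.

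Lfng encodes a fringe glycosyltransferase that extends sugars on the Notch receptor and alters which ligands it answers to. Its brighter probe set, 1420643_at, gave 364.4, 545.2 and 251.5 in the undifferentiated and 425.9, 351.5 and 795.6 in the differentiated samples. Only differentiated sample 4 was above background and the states overlapped, with a log2 fold change of 0.35 ± 0.33 (SE) and an adjusted p of 0.447. The other probe set, 1449943_at, did not exceed 31.21 in any sample and was not tested.

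Hes1 encodes a basic helix-loop-helix repressor and is the classical target of Notch signalling. Its probe set 1418102_at gave 1490, 1611 and 1915 in the undifferentiated and 1431, 1323 and 1288 in the differentiated samples, all above background. Every differentiated value was below every undifferentiated one, although differentiated sample 1 was close to undifferentiated sample 1. The means were 1672 ± 219.3 and 1347 ± 74.29 (SD, n = 3 each). The log2 fold change was -0.29 ± 0.14 (SE), with a 95% interval of -0.61 to 0.03 and an adjusted p of 0.154, so the difference did not pass. On MOE430A, 23.5% of tested probe sets had all differentiated values below all undifferentiated ones and 24.1% the reverse, and of the 15 tested here 6 and 3 did.

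Heyl, a HEY-family repressor that Notch3 is known to switch on in vascular smooth muscle, also had probe sets that differed. The brightest, 1419302_at, had 1331, 1093 and 1084 in the undifferentiated and 1145, 1134 and 830.8 in the differentiated samples, all above background and overlapping. Its log2 fold change was -0.17 ± 0.17 (SE) with an adjusted p of 0.475. The dimmer 1419303_at had 359.4, 514.4 and 592 and then 82.8, 118.3 and 150.4, which did not overlap. It fell by 1.54 ± 0.21 (SE) on the log2 scale with an adjusted p of 0.00233, and this call remained under all 17 alternatives in which it was tested. The third, 1438886_at, had 441.7, 401.4 and 554.4 and then 314.2, 78.49 and 47.62, a log2 fold change of -1.47 ± 0.41 (SE) with an adjusted p of 0.0355. That call was lost on leaving out any sample except differentiated sample 1. Both dimmer probe sets were above background in undifferentiated sample 4 alone, so the size of their change is uncertain, and the 3 probe sets, all with a negative log2 fold change, differ in its size and in whether it passed.

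Hey1, the other HEY-family repressor of the set, was below background on every array, at 157.8 to 296.3 in the undifferentiated and 125.7 to 187.5 in the differentiated samples. It was too dim to be tested.

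**Figure D2:**
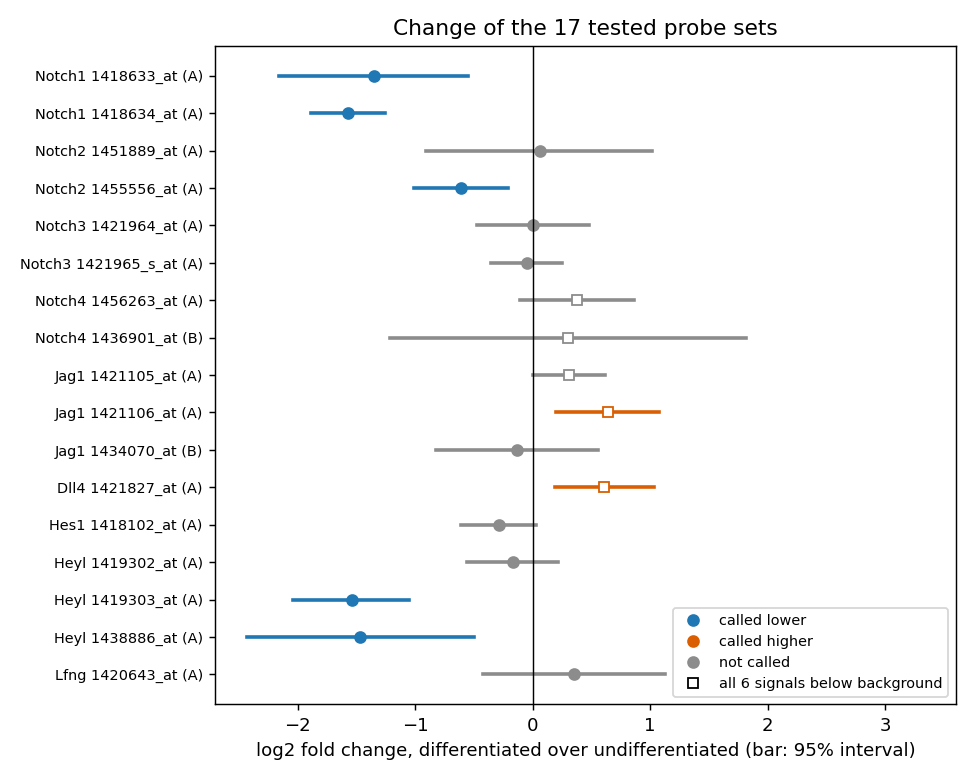
Log2 fold change (differentiated over undifferentiated) of the 17 tested probe sets with its 95% interval, the letter giving the chip and open squares those with all 6 signals below background. Notch1 stands at -1.35 and -1.57, the 3 Heyl probe sets spread from -0.17 to -1.54, and the higher calls of Jag1 and Dll4 are both open squares.

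By gene, 6 of the 10 (Notch1, Notch2, Notch3, Jag1, Hes1 and Heyl) had a probe set above background in all 3 undifferentiated samples. Of them 5, all but Notch1, had one in all 3 differentiated samples, where the MOE430A background was higher. In each differentiated sample at least 1 of the 2 Notch1 probe sets was above background. Notch4, Dll4 and Hey1 were not above background on any array.

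The wider pathway was described by a list of genes, of which 68 were tested. Among the 68, 7 were higher and 7 lower, and the median log2 fold change was -0.02, beside 0.04 over all 14977 genes tested, of which 9.23% were higher and 9.27% lower. Most of the 68 were read on MOE430A, where 14.2% of 9484 genes were higher and 13.9% lower. The 14977 also hold genes tested on MOE430B alone, a chip where 0.9% of 8222 genes were higher and 1.5% lower. Outside the set of 10, 59 genes were tested, of which 6 were higher and 5 lower.

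Among the other ligands, Dlk1, a non-canonical ligand known from stem and progenitor cells, fell from 19850, 9044 and 14020 to 2718, 2433 and 1975, a log2 fold change of -2.49 ± 0.29 (SE) with an adjusted p of 0.00112. Cntn1, a cell adhesion protein reported to act as a Notch ligand, fell with 1449563_at from 958.4 ± 208.7 to 392.8 ± 103.4 (SD, n = 3 each), at least 1.297-fold, since all 3 differentiated signals were below background. The adjusted p of 1449563_at was 0.00849. The Cntn1 probe set on MOE430B went the other way, at 0.50 ± 0.34 (SE), and did not pass, with an adjusted p of 0.532. Its signals were above background in 0 of 3 undifferentiated and 2 of 3 differentiated samples. The canonical ligands Jag2 and Dll1 did not pass, with log2 fold changes of 0.50 ± 0.26 and 0.26 ± 0.22 (SE).

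Of 5 enzymes that put sugars on the receptor, 1 rose: Pofut1, which adds the fucose that fringe enzymes extend, went from 1388 ± 103.9 to 1968 ± 145.5 with a log2 fold change of 0.48 ± 0.13 (SE) and an adjusted p of 0.0288. That call was lost under 12 of 19 alternatives and the sign changed under 1 more. The dimmer Pofut1 probe set of MOE430A, 1456323_at, rose as well, at 1.18 ± 0.17 (SE) with an adjusted p of 0.00283 from limma. Its undifferentiated signals were all below background, so the rise is at least 2.208-fold. The Pofut1 probe set of MOE430B did not pass, at 0.08. None of the 8 proteases and none of the 14 endocytosis and ubiquitin regulators passed by the probe set that stands for the gene, although other probe sets of Adam17, Aph1a, Nedd4 and Mib1 did, that of Mib1 being a brighter one on MOE430B. These 4 were named after their values had been seen.

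In the nucleus, Rbpj, the DNA-binding partner of the cleaved receptor, had 4920 ± 287.4 and 4399 ± 335.6 (SD, n = 3 each), a log2 fold change of -0.16 ± 0.12 (SE) and an adjusted p of 0.367. Its dimmer probe set on MOE430A was at -0.15 ± 0.18 (SE). That on MOE430B went from 9451 ± 1045 to 6502 ± 746.7 (SD) and did not pass either, at -0.53 ± 0.24 (SE) with an adjusted p of 0.353 from limma. Kat2b, a histone acetyltransferase, was the 1 gene of 8 in the nuclear complex that rose, by 0.76 ± 0.14 (SE) on the log2 scale. The dimmer Kat2b probe set of MOE430A passed as higher too, at 1.82 ± 0.36 (SE), and that of MOE430B did not pass, at -0.22 ± 0.34 (SE). Of 10 corepressors 3 rose and 2 fell. Tle5, a short Groucho-family protein that can oppose the longer ones, rose from 2489 ± 100.3 to 7873 ± 692.9 with an adjusted p of 0.000192, and Tle2 and Spen rose by 0.84 ± 0.23 and 0.76 ± 0.21 (SE). Tle3, a Groucho-family corepressor, and the deacetylase Hdac1 fell, with log2 fold changes of -0.73 ± 0.14 and -0.45 ± 0.11 (SE). Of the other Tle3 probe sets, 1419654_at passed as lower too, at -0.87 ± 0.15 (SE). Those that did not pass were 1449554_at, at -0.19 ± 0.17 (SE), and 1458512_at of MOE430B, at -0.55 ± 0.50 (SE). The calls of Tle2, Spen and Hdac1 were lost under 11, 10 and 11 of 19 alternatives, and the sign of Tle2 and Spen changed under 1 more each.

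Of 11 target genes tested, 1 rose and 1 fell by the probe set that stands for the gene. The dimmer Heyl probe sets passed as lower as well. So did a dimmer probe set of Cdkn1a, at -1.05 with an adjusted p of 0.00465 from limma, while the brighter did not, at -0.25. Cdkn1a was named after its values had been seen. Ccnd1, the cyclin that drives entry into the cell cycle and a target of many pathways, fell from 13880, 12540 and 14450 to 4086, 3227 and 3001, a log2 fold change of -1.97 ± 0.15 (SE) with an adjusted p of 0.000212, and its other probe sets fell as well. Id3, an inhibitor of basic helix-loop-helix factors, rose from 1734 ± 434.9 to 4024 ± 373.4 with an adjusted p of 0.00587. Hes5 and Hey2, targets closely related to Hes1 and Hey1, were below background on every array and were not tested.

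**Figure D3:**
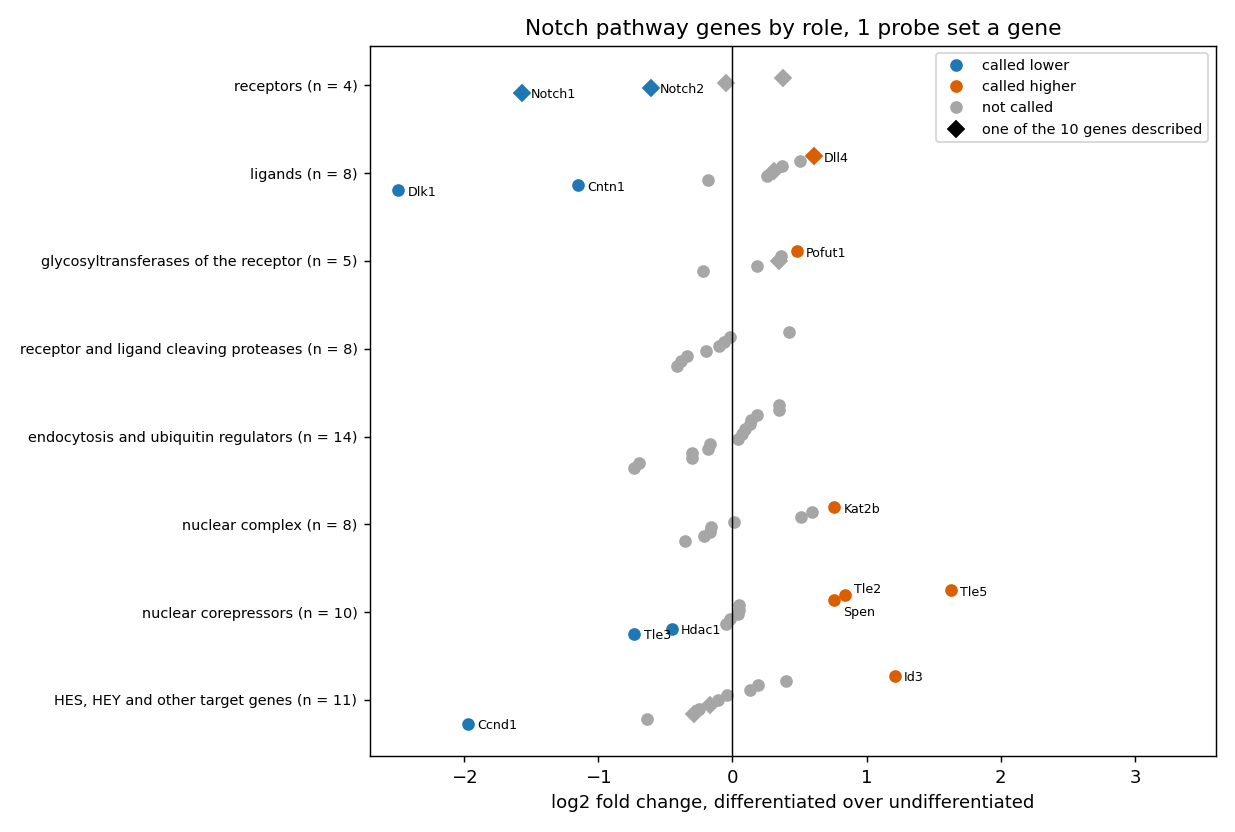
Log2 fold change of the 68 tested pathway genes by role, each by its brightest tested probe set on MOE430A or, for genes tested on MOE430B alone, on that chip, with diamonds for the genes of the set of 10 and names for those called. Calls lie on both sides of 0 in the corepressor and target groups, the 1 higher call among ligands is Dll4 with all its signals below background, and none lies in the protease and endocytosis groups.

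Markers of vascular cells, in which Notch3, Notch4, Dll4 and Heyl are well known, moved as follows. Of 12 endothelial markers 6 were above background in all undifferentiated and 2 in all differentiated samples. Pecam1 and Tek fell and Kdr rose, and the summed signal was 5818 to 6801 and then 6346 to 8135. Of 8 pericyte and vascular smooth muscle markers only Cspg4 passed, lower, and the summed signal was 21280 to 30730 and then 18960 to 19570. The highest of these sums holds a Pdgfrb signal of 22000 in undifferentiated sample 4, against 11240 and 10630 in undifferentiated samples 1 and 2. Of the other lists, the macrophage and leukocyte markers summed to 5317 to 6468 and then 7863 to 9693. Csf1r and Lyz2 were called higher, and Ptprc, Itgam and Fcer1g were never above background. The Schwann cell and neural crest markers gave 3799 to 5974 and then 4479 to 5424. Sox10 and Mbp were called higher and S100b lower, with Mbp and S100b never above background. Adipocyte markers gave 8659 to 10830 and then 72440 to 92180 (nearly all of it Lpl, with Adipoq and Pparg never above background and Fabp4 not called). Luminal markers gave 4797 to 8987 and then 3589 to 4660, with means of 2788 and then 662.9 for Csn3 within these sums. The part of any of these cells, and of the fibroblast and contractile genes given above, in the changes of Notch1, Notch2 and Heyl was not tested.

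The scale of the arrays was examined with the spiked controls. With arrays scaled on the hybridisation controls the median over all probe sets moved to -1.025 on MOE430A and -0.9326 on MOE430B, and with poly-A controls to 0.1689 on MOE430B. Relative to the median of all probe sets, Notch1 1418634_at changed by -1.58 with hybridisation controls and -1.6 with poly-A controls, and Notch2 1455556_at by -0.68 and -0.64. On the hybridisation scale itself 5 genes (Notch1, Notch2, Notch3, Hes1 and Heyl) passed as lower and 0 as higher. Over all 16301 MOE430A probe sets tested on that scale, 9702 were lower and 225 higher. Whether Notch3, Hes1 and Heyl passed therefore depended on the scale. Notch2 1455556_at lost its call with poly-A controls, at an adjusted p of 0.138, while Notch1 passed as lower on each scale tried. Without differentiated samples 1 and 4, whose hybridisation controls were the brightest, Notch1 1418634_at changed by -1.40 with an adjusted p of 0.00813, in a limma fit that takes the lone differentiated sample to vary like the others.

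**Figure D4:**
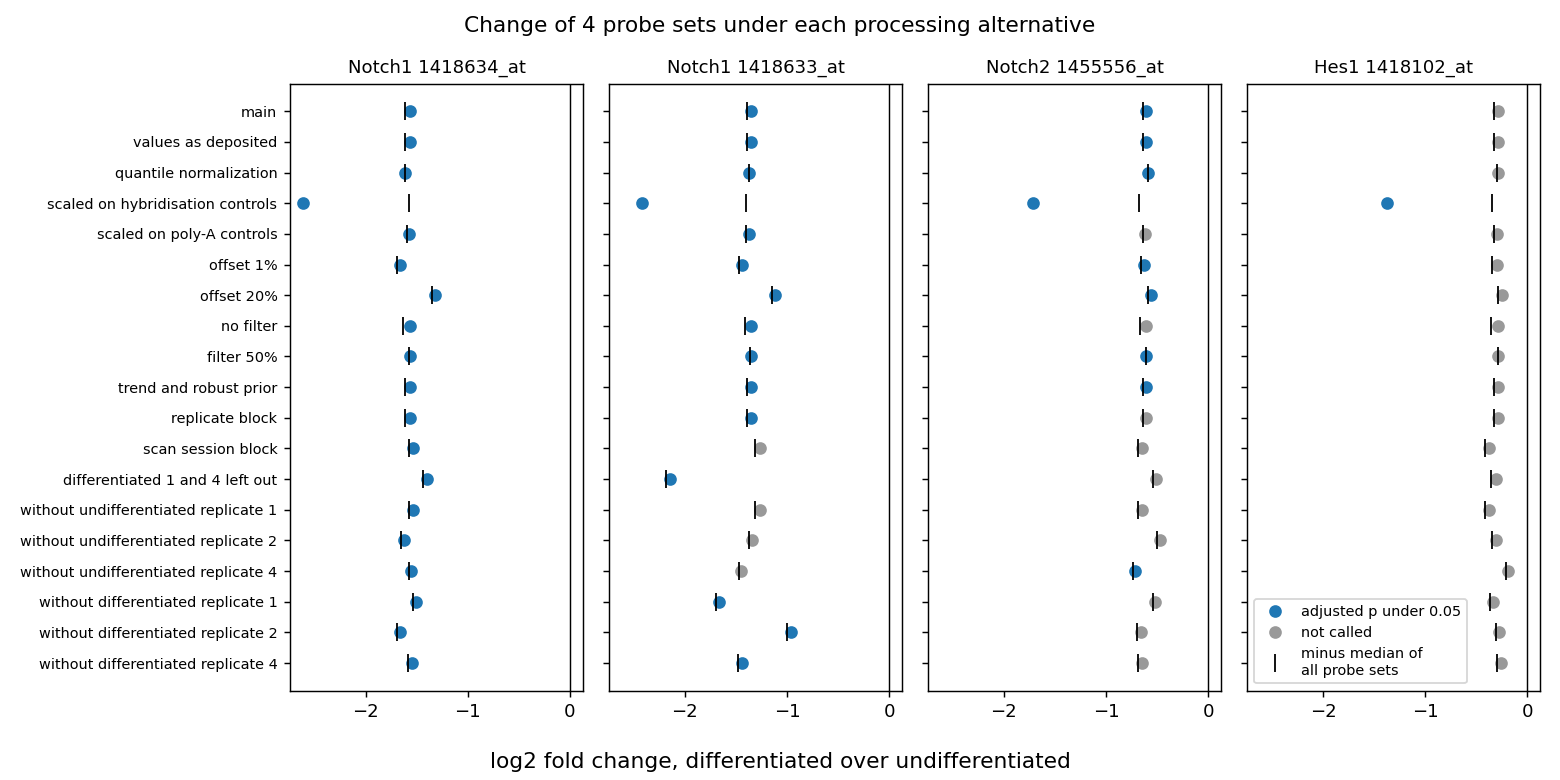
Log2 fold change of 4 probe sets under each processing alternative, blue where the adjusted p was under 0.05, with a tick for the change minus the median of all probe sets. Notch1 1418634_at stays between -2.61 and -1.32 and is called throughout, whereas Notch2 1455556_at is called in fewer than all settings and Hes1 with hybridisation controls alone.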

How the data were processed

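Total RNA, prepared with TRIzol per the labels, was hybridised to MOE430A and MOE430B. The authors deposited a MAS5 signal for each probe set on every array, which is an unlogged intensity, per the submitters' processing notes and the values, with a version not given in the sources used here. The deposited arrays share nearly 1 trimmed mean (leaving out 2% at each end), 1500.48 to 1500.54 on MOE430A and 1500.18 to 1500.21 on MOE430B.

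Probe sets were named through the platforms' probe-to-gene tables and a RefSeq gene table (GRCm38.p6, names only). On MOE430A 20393 of 22690 probe sets have 1 gene, of which 20364 matched RefSeq, 691 several and 1606 none. On MOE430B 14674 of 22575 have 1 gene, of which 14499 matched, 245 several and 7656 none. The 64 control probe sets of each chip stayed out of the tests. Signals were brought to the common trimmed mean, raised by 5% of it and logged to base 2, and the 15939 and 17915 probe sets averaging at least 20% of it were fitted in R 4.3.3 with limma 3.58.1 (lmFit and eBayes, no covariate, two-sided). Every adjusted p is limma's, adjusted by Benjamini and Hochberg per chip with a threshold of 0.05. The script was tested on simulated data. Tables, figures and motif searches used Python 3.11.15, pandas 2.3.3 and matplotlib 3.10.9.

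Within a chip the tested probe set of highest mean signal stands for its gene, and over both chips that of MOE430A does, or that of MOE430B where the gene was tested there alone. A state wholly below background was raised to the background, and the fold is then a lower bound. All 10 genes are named whatever their values. From the pathway list, up to 3 called rises and 3 called falls per role are named, and Rbpj, Jag2, Dll1, Hes5 and Hey2 whatever their values. Aes in the list was counted as Tle5. The genes, lists, rules and tests were chosen with earlier results of these data known. Alternatives were the deposited values, quantile normalization, scaling on spiked controls, other offsets, filters and priors, the sample number or scan session as a block, samples left out, a threshold of 0.01 and any probe set of a gene.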

Additional observations from a re-analysis of the deposited data

How the results depend on the processing

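On MOE430A 1 gene of the set was higher and 2 were lower, and in the pathway list 7 and 7. The values as deposited and an offset of 1% gave the same counts. On MOE430B limma called 0 genes of the set under each alternative run, and at an unadjusted p under 0.05 the main count there was also 0. The higher count on MOE430A (Dll4, below background) was 0 with quantile normalization, with either spiked-control scaling, with an offset of 20%, with no filter, with the 50% filter, with a trend and robust prior, with the scan session block, without differentiated samples 1 and 4 and at a threshold of 0.01, and 2 when any probe set counts. The lower count was 5 with hybridisation controls and 1 with poly-A controls, no filter, the session block, differentiated samples 1 and 4 left out and a threshold of 0.01. The pathway counts were 0 higher and 40 lower with hybridisation controls and 2 and 4 with poly-A controls, 3 higher with no filter and with the session block, 1 higher without differentiated samples 1 and 4, 3 higher and 4 lower at a threshold of 0.01, and 11 lower when any probe set counts. Over all 16301 MOE430A probe sets tested with hybridisation controls, 9702 were lower and 225 higher. Leaving out 1 sample at a time gave 0 to 1 higher and 1 to 2 lower in the set, and 3 to 6 higher and 5 to 6 lower in the pathway. The session block gave the same calls as leaving out undifferentiated sample 1, which was scanned alone in its session.

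With the sample number as a replicate block 1 gene of the set was higher and 1 lower, Notch2 having an adjusted p of 0.0517. Samples with the same number did not deviate together from their state means (correlations of -0.021 to 0.047), and not every sample correlated best with its own number. Such correlations, around means of 3 samples, cannot tell whether samples of the same number share an animal or culture. The labels do not say so either, and the numbers were not treated as pairs in the main fit.

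Of 313 values of single probe sets of the 10 genes, 238 kept direction and side of the threshold, 50 lost the call, 3 gained one and 22 changed sign, and of 264 for named pathway genes 204, 52, 1 and 7. Signs changed with hybridisation controls, where the median of all probe sets is -1.025 on MOE430A and -0.9326 on MOE430B, for Notch2 1451889_at (-0.97), Notch3 1421964_at (-1.04), Notch4 1456263_at (-0.6) and 1436901_at of MOE430B (-0.59), Jag1 1421105_at (-0.65) and 1421106_at (-0.3), Dll4 1421827_at (-0.29), Lfng (-0.61), Jag2 (-0.51), Dll1 (-0.79), Pofut1 (-0.6), Kat2b (-0.34), Spen (-0.28) and Tle2 (-0.18). Jag1 1434070_at was at 0.01 with poly-A controls, and Notch3 1421964_at at -0.04 with quantile normalization, -0.0 with poly-A controls and -0.0 with an offset of 20%. Without differentiated samples 1 and 4, Notch2 1451889_at was at -0.75, Notch4 1436901_at at -1.02, Lfng at -0.07 and Dll1 at -0.08. Leaving out 1 sample, Notch2 1451889_at ranged from -0.27 to 0.46, Notch3 1421964_at from -0.2 to 0.13 and Notch4 1436901_at from -0.37 to 0.96. For the Notch4, Dll4 and dimmer Jag1 probe sets these are fitted values of signals below background and no measured fold. The cause of the other changes was not tested. Signals near or below background limit what can be said of Notch4, Dll4, Hey1, Lfng and the dimmer Jag1 and Heyl probe sets, and the wide spread on MOE430B limits what can be said of Jag1.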
